A study of Mus musculus with 4 samples.

Results

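The MHC class I genes described here were 6 of the 19090 genes measured, taken by name: B2m, H2-D1, H2-K1, Tap1, Tap2 and Tapbp. They were followed across 4 brain sections profiled with Visium, in which each spot of an array captures the RNA of the tissue above it and can hold several cells. The wild-type section came from a C57BL/6J mouse. The Dp16 section came from a mouse with a duplication of the mouse segment that matches the trisomic human chromosome of Down syndrome. The 5xFAD section came from a mouse with human transgenes that carry familial Alzheimer's disease mutations under the neuronal Thy1 promoter, and the 5xFAD-Dp16 section from a mouse with both. All 4 mice were male and 9 months old, and each section was 10 µm of hemisphere. There was 1 section per genotype, so no genotype had a replicate and no test between genotypes was made. Every interval below is a 95% interval that covers counting error only.

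The sections held 2721 wild-type, 2540 Dp16, 2347 5xFAD and 2941 5xFAD-Dp16 spots, with 26049860 to 36461389 unique molecular identifiers (UMIs, counted RNA molecules) each and medians of 9404 to 11639 UMIs a spot. The neuronal marker Snap25, which defines brain tissue, was at or above 1858 counts-per-million (CPM, a gene's UMIs scaled to a common total) in every section. Thy1 stood at 562 and 477 CPM in the wild-type and Dp16 sections and at 1449 and 1186 in the 5xFAD and 5xFAD-Dp16 sections. Ifnar2, which lies in the duplicated segment, stood at 23.1 and 29.9 CPM in the wild-type and 5xFAD sections and at 42.2 and 48.4 in the Dp16 and 5xFAD-Dp16 sections. Both genes thus sat on the side that the labels give. Clusters 12 and 13 of the deposited spot table took 3.01% of the wild-type UMIs, 9.97% of the Dp16 UMIs, 6.92% of the 5xFAD UMIs and 6.60% of the 5xFAD-Dp16 UMIs. Cluster 13 held choroid plexus markers at 236851 to 311284 CPM and cluster 12 endothelial markers at 683 to 1042, and both held meningeal fibroblast markers (753 to 1536 in cluster 12 and 940 to 1332 in cluster 13), so results are also given without both clusters. The labels name no batch.

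A class I molecule is a heavy chain bound to the light chain beta-2-microglobulin and to a short peptide, and it shows that peptide at the cell surface to CD8 T cells. The peptides are pumped into the endoplasmic reticulum by the TAP transporter, and tapasin holds the empty heavy chain at the transporter until a peptide is loaded. Interferons raise transcription of the whole set. In the healthy brain class I RNA is found mostly in microglia, endothelium and the cells of the brain's borders, and little in neurons. B2m encodes the light chain, H2-D1 and H2-K1 the 2 classical heavy chains of this strain, Tap1 and Tap2 the subunits of the transporter, and Tapbp tapasin. In RefSeq on GRCm38.p6, the assembly of mm10, B2m lies on chromosome 2 (122147687 to 122153082). The other 5 lie on chromosome 17, with Tapbp at 33919478 to 33929290, H2-K1 at 33996012 to 34000619, Tap1 at 34187556 to 34197225, Tap2 at 34204479 to 34216321 and H2-D1 at 35263094 to 35267497. None of the 6 lies on the chromosome of the Dp16 duplication. H2-D1 and H2-K1 are close paralogs, and no label says how reads shared by both were assigned, so the split between them is uncertain.

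Printed here are the 250 bases before the RefSeq start of the light chain, both heavy chains and, for contrast, Tap1. The first 3 were higher together at plaques, while for Tap1, with few UMIs there, no difference was detectable. Whether the motifs bear on the levels was not tested. For H2-K1, which has 2 listed starts, the first one listed is used. Its window lies inside the gene span given above, so its distances are not counted from the outer end of that span. They are therefore not directly comparable with those of the other genes. Tapbp was searched but is not printed, and Tap2 had no entry. Capitals mark matches on either strand to motifs known from class I promoters. These are the NF-kB motif GGGATTCCC, the interferon response motifs GAANNGAAA and GAAANNGAA, the cyclic AMP response half-site TGACG, and ATTGG, which is a CCAAT box read on the other strand. No matches overlapped.
B2m (chr2:122147437-122147686, strand +): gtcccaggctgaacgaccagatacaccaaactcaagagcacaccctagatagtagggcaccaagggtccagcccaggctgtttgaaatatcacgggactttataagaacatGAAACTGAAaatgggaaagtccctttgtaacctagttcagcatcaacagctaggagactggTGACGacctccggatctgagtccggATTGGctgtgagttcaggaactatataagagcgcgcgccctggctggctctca
H2-D1 (chr17:35262844-35263093, strand +): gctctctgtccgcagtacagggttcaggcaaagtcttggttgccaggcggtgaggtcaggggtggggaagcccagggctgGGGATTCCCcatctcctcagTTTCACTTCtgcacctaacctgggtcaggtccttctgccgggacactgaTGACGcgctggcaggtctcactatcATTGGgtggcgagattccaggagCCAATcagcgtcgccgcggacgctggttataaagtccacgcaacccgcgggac
H2-K1 (chr17:34000348-34000597, strand -): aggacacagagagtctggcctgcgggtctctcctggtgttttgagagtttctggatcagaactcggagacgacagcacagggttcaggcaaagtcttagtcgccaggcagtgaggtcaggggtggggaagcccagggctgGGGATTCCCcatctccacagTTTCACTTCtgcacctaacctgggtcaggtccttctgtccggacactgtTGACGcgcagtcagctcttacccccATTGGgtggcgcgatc
Tap1 (chr17:34187306-34187555, strand +): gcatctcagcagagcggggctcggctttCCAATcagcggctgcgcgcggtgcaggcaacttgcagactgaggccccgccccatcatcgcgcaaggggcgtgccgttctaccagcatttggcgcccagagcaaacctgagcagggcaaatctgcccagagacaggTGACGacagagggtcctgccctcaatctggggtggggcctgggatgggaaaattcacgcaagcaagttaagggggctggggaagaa

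The heavy chain promoters shared a block. H2-D1 held GGGATTCCC from 170 bases before its start and GAANNGAAA, on the other strand, from 150 bases before. H2-K1 held the same motifs from 110 and 90 bases before the start used. Of the 32851 RefSeq promoters of the same length, 0.301% held GGGATTCCC and 6.31% held GAANNGAAA. B2m held no match to either and instead held GAAANNGAA from 139 bases before its start, a motif in 7.13% of promoters. TGACG stood 78, 101 and 41 bases before the starts of B2m, H2-D1 and H2-K1, and in all 3 it was followed by ATTGG after exactly 20 bases. Alone TGACG was in 17.8% and ATTGG in 33.8% of promoters, and the pair at that distance was in 0.0913%. Tap1 held TGACG from 86 bases before its start and ATTGG on the other strand from 222 bases before it, and Tapbp held ATTGG alone, so neither held the pair at that distance. A match describes the letters of the window and is not a measured binding site.

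The light chain and both heavy chains were higher in each 5xFAD section than in its matched section without the transgenes. B2m stood at 169.6 CPM in the wild-type, 178 in the Dp16, 281 in the 5xFAD and 308 in the 5xFAD-Dp16 section. H2-D1 stood at 56.7, 59.1, 83.9 and 99.4 in the same order. H2-K1 stood at 32.5, 42.1, 46.1 and 57.4. For these 3 genes both 5xFAD sections were above both others, and the 5xFAD-Dp16 section was the highest. The transporter and tapasin were counted more thinly, with 85 to 136 UMIs a section for Tap1, 133 to 223 for Tap2 and 615 to 765 for Tapbp. Tap1 stood at 2.47, 2.98, 3.26 and 3.73 CPM, Tap2 at 4.54, 5.34, 5.11 and 6.12, and Tapbp at 18.7, 22.2, 23.6 and 21.0. Tapbp was highest in the 5xFAD section, unlike the others, and its 4 values spanned a narrow range.

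**Figure D1:**
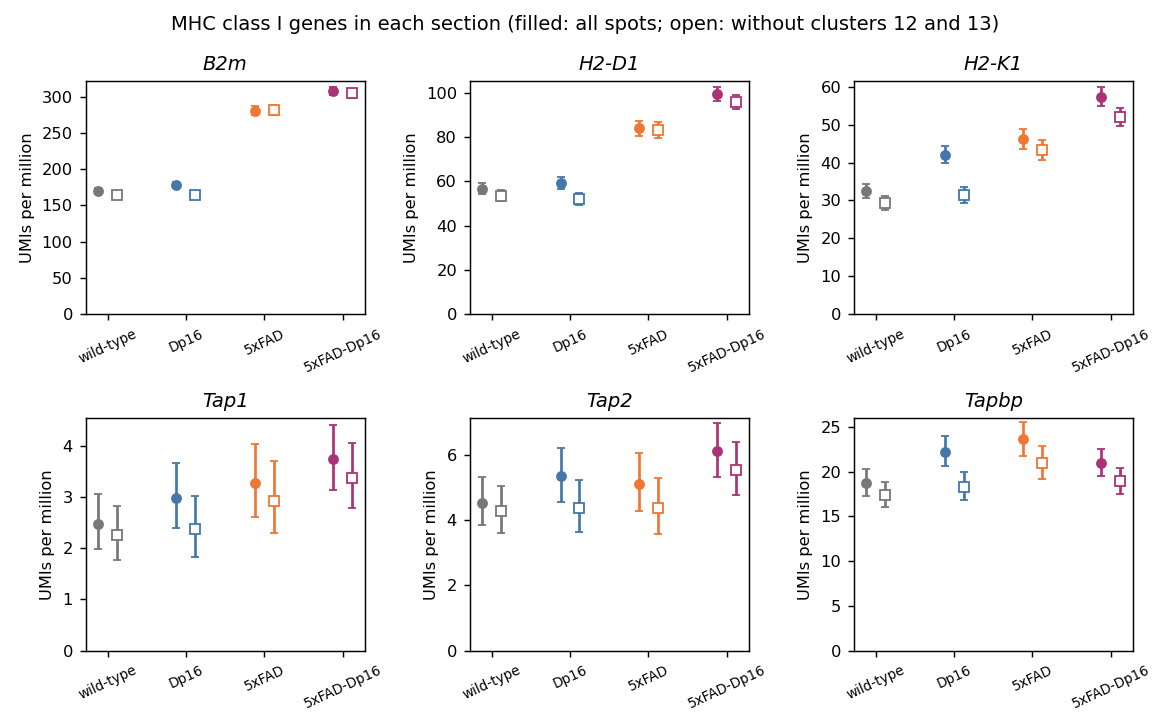
CPM (y axis, from 0) of each class I gene in the 4 sections (x axis), with 1 section per genotype. Filled points use all spots, open points leave out clusters 12 and 13, and bars are exact 95% Poisson intervals. B2m goes from 169.6 in wild-type to 308 in 5xFAD-Dp16, and the open point of H2-K1 in Dp16 (31.5) lies below its filled point (42.1).

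In the 5xFAD over wild-type comparison, which asks what the transgenes went with on normal chromosomes, the log2 ratio of B2m was 0.73 (0.68 to 0.78). H2-D1 had 0.57 (0.48 to 0.65) and H2-K1 0.51 (0.39 to 0.62). Tapbp had 0.33 (0.17 to 0.49), while Tap1 at 0.40 (-0.05 to 0.85) and Tap2 at 0.17 (-0.18 to 0.51) had intervals that held 0. So 4 of the 6 genes were higher beyond counting error, against 12.7% of the 11033 genes that averaged 5 CPM or more, a filter that 5 members passed and Tap1 did not. None of the 6 was lower beyond counting error, as 36.6% of those genes were. B2m alone passed 1.5-fold, which 1.92% of those genes did. The median log2 ratio was 0.45 over the 6 and -0.08 over all 11033 genes.

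The same step on the duplicated background, 5xFAD-Dp16 over Dp16, uses no section of the first comparison. B2m had a log2 ratio of 0.79 (0.75 to 0.84), H2-D1 of 0.75 (0.67 to 0.83) and H2-K1 of 0.45 (0.35 to 0.55). Tap1 had 0.32 (-0.07 to 0.72), Tap2 0.20 (-0.10 to 0.49) and Tapbp -0.08 (-0.23 to 0.07). The light chain and heavy chains, 3 of the 6, were higher beyond counting error, against 17.8% of all genes, and none was lower, against 24.1%. Without cluster 11, described further on, Tapbp was lower, at -0.16 (-0.32 to -0.01). B2m and H2-D1 passed 1.5-fold, as 1.2% of all genes did, and the medians were 0.39 over the 6 and -0.03 over all genes. Without clusters 12 and 13 the values were 0.89, 0.89 and 0.72 for B2m, H2-D1 and H2-K1, and 5 members were higher beyond counting error, Tapbp at 0.05 (-0.12 to 0.22) being the other. In the first comparison the same step left B2m, H2-D1 and H2-K1 at 0.78, 0.64 and 0.57. The difference between the 5xFAD steps on the 2 backgrounds was 0.18 (0.07 to 0.30) for H2-D1 and -0.42 (-0.63 to -0.20) for Tapbp, while the intervals of the other 4 held 0. Without clusters 12 and 13 it was 0.11 (0.04 to 0.18) for B2m, 0.25 (0.12 to 0.38) for H2-D1, 0.15 (-0.02 to 0.33) for H2-K1 and -0.22 (-0.46 to 0.02) for Tapbp, so B2m then passed counting error, Tapbp no longer did, and the sign of H2-K1 turned.

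Summed microglia markers were also higher in each 5xFAD section than in its matched section without the transgenes. Between sections that differ in the duplication, their sum over all spots was lower with it, while B2m, H2-D1 and H2-K1 stood higher. The 11 microglia markers summed to 575 and 486 CPM in the wild-type and Dp16 sections and to 1003 and 910.2 in the 5xFAD and 5xFAD-Dp16 sections. Without clusters 12 and 13 the microglia sum was 483 in Dp16 and 570 in wild-type. There B2m was 164.4 and 164.2, H2-D1 51.8 and 53.5, and H2-K1 31.5 and 29.2. With 10 regions weighted alike, the microglia sum was 506 in Dp16 and 564 in wild-type. In 5xFAD-Dp16 and 5xFAD it was 866 and 844 outside plaques and their neighbours. It was 1089 and 1183 in neighbours and 1957 and 1941 at plaques. The 8 endothelial markers summed to 261 to 269 over all spots of the 4 sections. No defining marker of either list was at 0 in any section, and the part of cell numbers in the class I values was not tested. In spots, more cells of a type and more RNA per cell cannot be told apart.

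Between the Dp16 and wild-type sections the class I genes differed less, and less again without clusters 12 and 13. Dp16 over wild-type had log2 ratios of 0.07 (0.02 to 0.12) for B2m, 0.06 (-0.03 to 0.15) for H2-D1 and 0.37 (0.26 to 0.49) for H2-K1. Tap1 had 0.27 (-0.17 to 0.71), Tap2 0.23 (-0.09 to 0.56) and Tapbp 0.25 (0.09 to 0.40). So 3 members were higher beyond counting error, against 14.3% of all genes, none was lower, against 48.3%, and 0 passed 1.5-fold, against 2.02%. The medians were 0.24 over the 6 and -0.13 over all genes. Without clusters 12 and 13 the 6 values lay between -0.05 for H2-D1 and 0.11 (-0.03 to 0.24) for H2-K1, and 0 members were higher beyond counting error. Clusters 12 and 13 held 32.7% of the H2-K1 UMIs of the Dp16 section and 12.8% of those of the wild-type section. Choroid plexus markers summed to 6863 CPM in wild-type and 32417 in Dp16, and meningeal fibroblast markers to 81.4 and 230.3. The part of this tissue in the class I values was not tested.

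Both sections of the remaining comparison carry the transgenes and differ in the duplication. 5xFAD-Dp16 over 5xFAD had log2 ratios of 0.13 (0.09 to 0.18) for B2m, 0.24 (0.17 to 0.32) for H2-D1 and 0.32 (0.21 to 0.42) for H2-K1. Tap1 had 0.19 (-0.21 to 0.60), Tap2 0.26 (-0.06 to 0.58) and Tapbp -0.17 (-0.33 to -0.01). These 3 chains were higher beyond counting error, against 14.9% of all genes, and Tapbp was lower, as 32.8% were. None passed 1.5-fold, which 0.625% of all genes did. Unlike in Dp16 over wild-type, the chains stayed higher without clusters 12 and 13, at 0.11 (0.07 to 0.16), 0.20 (0.12 to 0.28) and 0.26 (0.15 to 0.37). The medians were 0.22 over the 6 and -0.07 over all genes. Tapbp was not lower beyond counting error with edgeR's TMM scaling, nor without clusters 12 and 13, where it had -0.15 (-0.32 to 0.02). This comparison and the 3 before it use the same 4 sections, each in 2 comparisons.

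**Figure D2:**
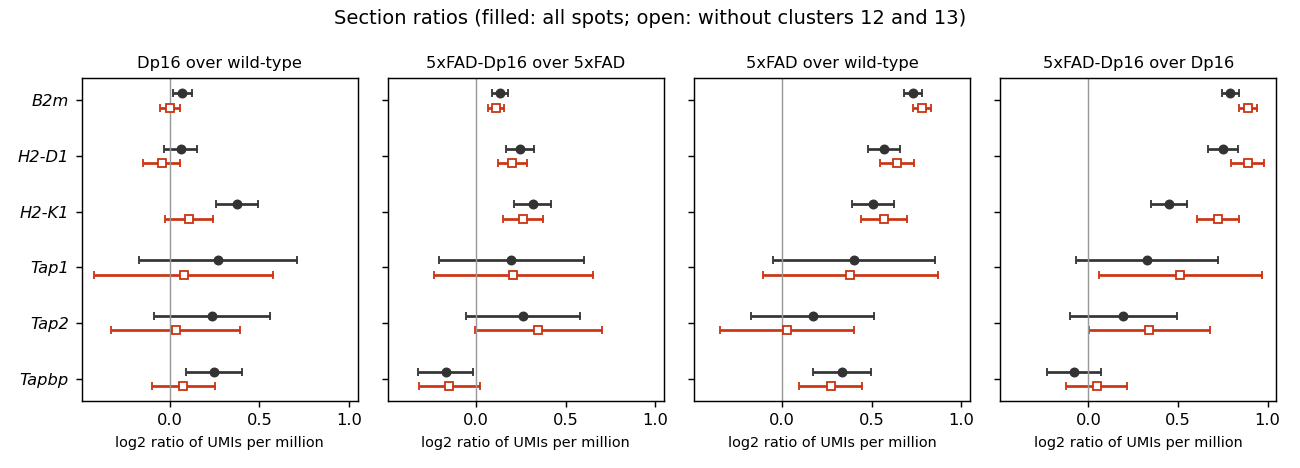
Log2 ratio of CPM (x axis) of the 6 class I genes (y axis) in the 4 comparisons of 1 section against 1 section. Filled points use all spots, open points leave out clusters 12 and 13, and bars are 95% counting intervals. In Dp16 over wild-type the H2-K1 point moves from 0.37 to 0.11, and in 5xFAD-Dp16 over Dp16 it moves from 0.45 to 0.72.

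The spot table marks plaque spots and their neighbours in the 5xFAD sections. No label says how the marks were made. The 5xFAD section had 324 plaque spots, 628 neighbours and 1395 unmarked spots, and the 5xFAD-Dp16 section had 396, 759 and 1786. Spots of 1 section are not replicates, so each section gives 1 value, and the second section repeats the measure. Plaque spots were compared with unmarked spots of the same region labels, in regions with at least 10 spots of each kind.

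At plaques the light chain and heavy chains were higher by between 1.7-fold and 2.1-fold, and no difference was detectable for the transporter or tapasin. In the 5xFAD section B2m stood at 470.4 CPM in plaque spots and 228 in matched unmarked spots, a log2 ratio of 1.05 (0.95 to 1.14). In the 5xFAD-Dp16 section it stood at 539 and 279.9, a log2 ratio of 0.94 (0.86 to 1.03). H2-D1 stood at 145 against 71.6 (log2 ratio 1.01, 0.85 to 1.18) and at 166 against 89.1 (0.89, 0.75 to 1.03). H2-K1 stood at 65.3 against 37.9 (0.78, 0.55 to 1.02) and at 93.7 against 48.4 (0.95, 0.77 to 1.14). All 3 genes were thus higher in plaque spots in both sections.

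Tap1, with 11 and 18 UMIs in the plaque spots, had log2 ratios of -0.16 (-1.14 to 0.82) and -0.25 (-1.09 to 0.59). Tap2, with 14 and 18, had -0.44 (-1.29 to 0.41) and -0.63 (-1.37 to 0.10), and Tapbp, with 91 in each, had 0.30 (-0.06 to 0.65) and -0.08 (-0.45 to 0.28). For these 3 no difference was detectable at this depth, and the intervals of the transporter subunits are wide. In each section 3 members passed 1.5-fold, against 2.18% of all genes in 5xFAD and 2.36% in 5xFAD-Dp16, and the same count was higher beyond counting error, against 7.32% and 11.2%. None was lower beyond counting error, against 8% and 8.82%. Without cluster 11 Tap2 in 5xFAD-Dp16 had -0.99 (-1.87 to -0.12).

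Neighbours of plaques lay between. Over matched unmarked spots B2m had log2 ratios of 0.45 (0.37 to 0.54) in 5xFAD and 0.37 (0.30 to 0.45) in 5xFAD-Dp16. H2-D1 had 0.35 (0.20 to 0.51) and 0.36 (0.24 to 0.48), and H2-K1 had 0.45 (0.24 to 0.66) and 0.40 (0.23 to 0.56). These 3 members were higher beyond counting error in each section, against 7.71% and 12.1% of all genes, and none passed 1.5-fold, against 0.689% in each. None was lower, against 6.3% and 6.75%.

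With 10 regions given the same weights in every group of spots, the levels formed a series from tissue without transgenes to plaques. B2m stood at 165 CPM in wild-type, then 248 in unmarked, 347 in neighbour and 504 in plaque spots of 5xFAD. From Dp16 to 5xFAD-Dp16 the series ran 175, 286, 386 and 583. H2-D1 ran 56.3, 80.1, 105 and 164 on the first background and 60.5, 93.1, 123 and 186 on the second. H2-K1 ran 30.3, 42.4, 57.3 and 70.3, and 37.8, 50.3, 68.6 and 105. Each step was upward for each of the 3 genes on both backgrounds. Unmarked spots were already above the section without transgenes, with log2 ratios of 0.58 (0.51 to 0.66) and 0.71 (0.64 to 0.78) for B2m, 0.51 (0.38 to 0.64) and 0.62 (0.50 to 0.74) for H2-D1, and 0.48 (0.31 to 0.66) and 0.41 (0.26 to 0.57) for H2-K1. Tap1 was also higher in unmarked spots, by 0.70 (0.08 to 1.32) and 1.04 (0.43 to 1.65), but no climb from there to plaques was detectable. It had 3.7, 3.6 and 2.6 CPM in unmarked, neighbour and plaque spots of 5xFAD and 5.0, 2.8 and 4.3 in 5xFAD-Dp16. With these weights Tap1 was lower in neighbour than in unmarked spots of 5xFAD-Dp16, at -0.85 (-1.66 to -0.05), from 21 UMIs in the neighbours. Tapbp was above wild-type in 5xFAD unmarked spots by 0.25 (0.01 to 0.49) and in its plaque spots by 0.56 (0.21 to 0.91), and in 5xFAD-Dp16 its intervals held 0.

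**Figure D3:**
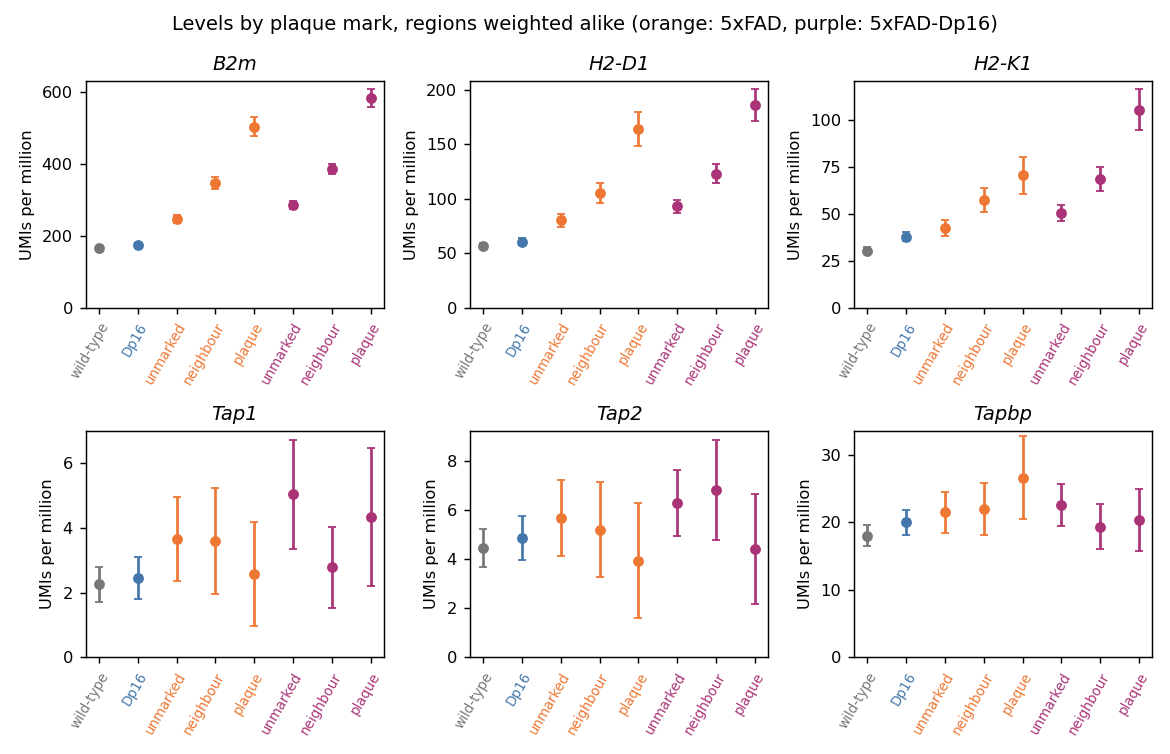
CPM (y axis, from 0) of each class I gene in wild-type and Dp16 (all spots) and in unmarked, neighbour and plaque spots of the 5xFAD (orange) and 5xFAD-Dp16 (purple) sections, with 10 regions given the same weights in every group. Bars are 95% counting intervals. B2m, H2-D1 and H2-K1 step up to the plaque spots in both sections (B2m 504 and 583), while Tap1, Tap2 and Tapbp do not climb in this way in both.

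Microglia markers moved along the same series. Their sum ran 564, 844, 1183 and 1941 CPM from wild-type to 5xFAD plaque spots and 506, 866, 1089 and 1957 from Dp16 to 5xFAD-Dp16 plaque spots. The 11 plaque-associated microglia markers ran 1123, 1756, 2428 and 3947, and 1077, 1654, 2237 and 4038. Endothelial markers stayed between 259 and 294 in all 8 groups. Other lists moved from the section without transgenes to unmarked spots, some of them in opposite directions on the 2 backgrounds. Neuron markers were lower on both, with log2 ratios of -0.30 (-0.32 to -0.28) on the wild-type and -0.23 (-0.25 to -0.21) on the Dp16 background. Smooth muscle markers had 0.47 (0.31 to 0.63) and 0.05 (-0.09 to 0.19), and astrocyte markers 0.16 and -0.04. Choroid plexus markers had log2 ratios of 1.41 on the wild-type and -2.37 on the Dp16 background, meningeal fibroblast markers 1.04 and -0.76, and border macrophage markers 0.60 (0.30 to 0.91) and -0.11 (-0.43 to 0.21). Markers of T, NK and B cells were higher on both, by 0.87 (0.39 to 1.36) and 0.79 (0.44 to 1.13). Of these 9 markers, 7 were in the matrix, and they summed to 3.11, 4.73, 4.53 and 7.73 CPM in the wild-type, Dp16, 5xFAD and 5xFAD-Dp16 sections, of which Trac gave 2.33, 2.46, 3.30 and 5.32. Cd3e was at 0 in the plaque spots of both sections, but had only 2 and 1 UMIs in the whole sections. Cd79a was also at 0 in both sets of plaque spots. Cd8a was at 0 in the whole 5xFAD section (9 UMIs in 5xFAD-Dp16). Without matched regions, the list summed to 4.98 and 4.61 CPM in plaque spots against 4.74 and 7.97 in unmarked spots. Over matched regions Trac, the only gene of the list averaging 1 CPM or more, was lower at plaques beyond counting error. Its log2 ratios were -1.29 and -1.24. From unmarked to plaque spots of 5xFAD and 5xFAD-Dp16, the log2 ratios of astrocyte markers were 0.18 (0.13 to 0.23) and 0.18 (0.14 to 0.23). Neuron markers had 0.09 and 0.25 over that step, and oligodendrocyte markers 0.04 and 0.26. Meningeal fibroblast markers had -0.64 and -0.49, smooth muscle markers -0.57 and -0.24 and choroid plexus markers -0.67 and -0.09. The microglia list had 1.20 and 1.18. The part of these cell types in the class I values was not tested.

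**Figure D4:**
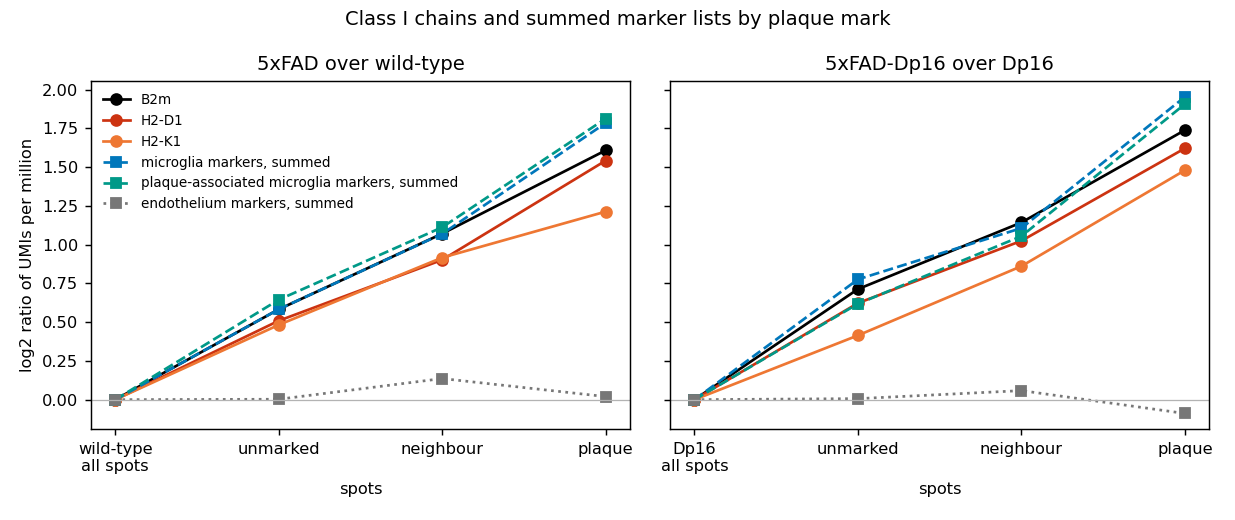
Log2 ratio of CPM (y axis) to the section without transgenes (left point, set to 0) for unmarked, neighbour and plaque spots (x axis), with 10 regions given the same weights in every group. The left panel shows 5xFAD over wild-type and the right panel 5xFAD-Dp16 over Dp16. Solid lines are single genes and broken lines sums of marker lists. B2m reaches 1.61 and 1.74 at plaques and the microglia list 1.78 and 1.95, while the endothelium list is at 0.02 and -0.09 there.

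The plaque spots differed between the sections beyond counting error in both heavy chains and the light chain. Unmarked spots differed in the same direction, so this was not particular to plaque spots. In unmarked spots of 5xFAD-Dp16 and 5xFAD, B2m stood at 286 and 248 CPM, H2-D1 at 93.1 and 80.1, and H2-K1 at 50.3 and 42.4. With the same region weights, H2-K1 in 5xFAD-Dp16 plaque spots was above that in 5xFAD plaque spots by 0.58 (0.33 to 0.84) on the log2 scale. B2m was above by 0.21 (0.11 to 0.31) and H2-D1 by 0.18 (0.01 to 0.36). The microglia list differed by 0.01 (-0.04 to 0.06) and the plaque-associated list by 0.03 (-0.00 to 0.07). Tap1 at 0.76 (-0.39 to 1.90), Tap2 at 0.16 (-0.97 to 1.29) and Tapbp at -0.39 (-0.85 to 0.07) had intervals that held 0.

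Within single regions the plaque pattern was widespread but not uniform. B2m was higher in plaque than in unmarked spots in 10 of 10 regions of 5xFAD, 8 of them beyond counting error, and in 9 of 11 regions of 5xFAD-Dp16, all 9 beyond counting error. Its log2 ratio ran from 0.01 in Cortex CTXsp to 1.49 in Hypothalamus in 5xFAD. In 5xFAD-Dp16 it ran from -0.07 in Cortex RSP, CL to 1.64 in Cortex CTXsp, so 1 region label stood at opposite ends of the 2 sections. H2-D1 was higher in 9 of 10 and 9 of 11 regions, 6 and 7 beyond counting error, and H2-K1 in 7 of 10 and 9 of 11, 6 in each beyond counting error. The highest plaque levels of B2m were in FB, at 897 and 1086 CPM against 332 and 506 in its unmarked spots. In Cortex RSP, IL of both sections and Cortex RSP, CL of 5xFAD-Dp16, B2m in plaque and unmarked spots differed by less than counting error.

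The higher levels of the 5xFAD sections were also spread over the brain. Among the 12 regions with at least 30 spots in every section, B2m was higher in 5xFAD than in wild-type in 11, 10 of them beyond counting error. H2-D1 was higher in 11 (11 beyond counting error) and H2-K1 in 11 (10). In 5xFAD-Dp16 over Dp16 all 3 were higher in 12 of 12 regions, with 11, 11 and 8 beyond counting error. The largest B2m log2 ratios were in Hypothalamus (1.42) on the first background and in Hippocampus (1.32) on the second. VL was the exception in 5xFAD over wild-type, with -0.80 for B2m, -1.51 for H2-D1 and -1.08 for H2-K1. There B2m stood at 338 CPM in 52 wild-type spots and 194 in 40 5xFAD spots, and at 227 and 281 in the 102 Dp16 and 95 5xFAD-Dp16 spots. FB had the highest B2m of the other 11 regions in all 4 sections, at 289.7, 263, 462 and 591.

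**Figure D5:**
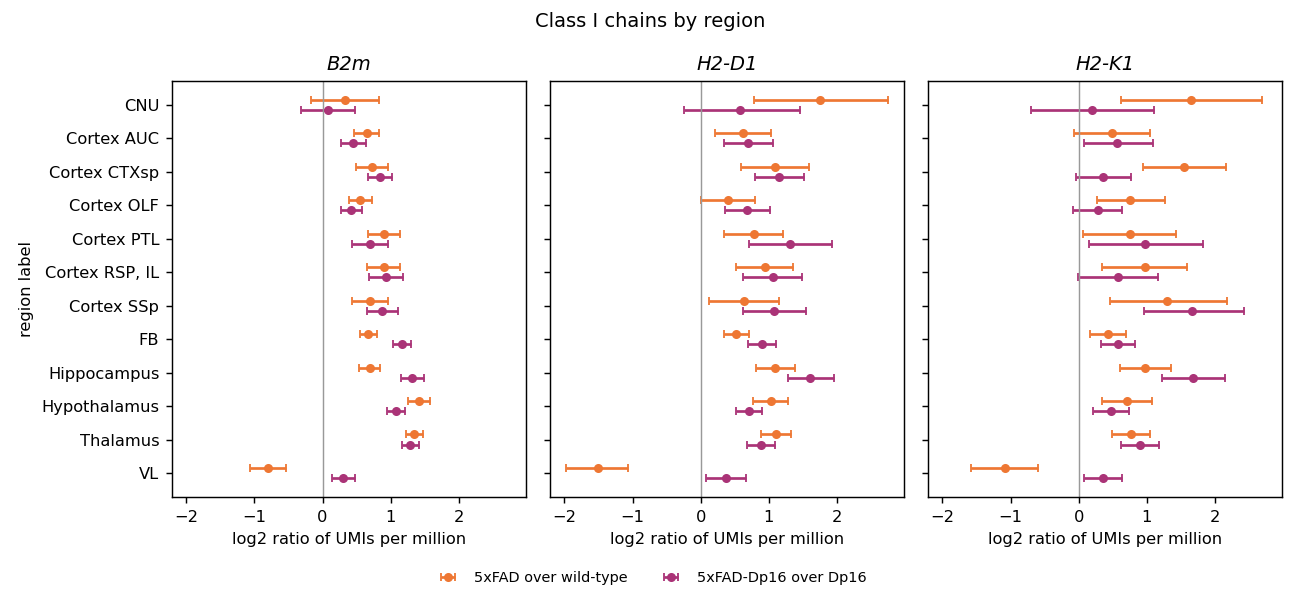
Log2 ratio of CPM (x axis) of B2m, H2-D1 and H2-K1 in each of 12 regions (y axis, region labels of the spot table), for 5xFAD over wild-type (orange) and 5xFAD-Dp16 over Dp16 (purple). Bars are 95% counting intervals from 1 section per genotype. All points lie above 0 except those of VL in 5xFAD over wild-type (-0.80, -1.51 and -1.08).

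By expression cluster, which was made from all genes and is given as a description, cluster 11 had the most B2m. Cluster 11 held 131 spots of 5xFAD and 170 of 5xFAD-Dp16, against 1 wild-type and 0 Dp16 spots. B2m stood there at 1144 and 1316 CPM, H2-D1 at 366 and 425, and H2-K1 at 145 and 222. Its microglia markers summed to 5048 and 5219 CPM, against 800.5 and 673 in the spots outside clusters 3, 11, 12 and 13. Cluster 11 gave 17.7% and 18.6% of the B2m UMIs of these sections from 4.4% of all UMIs in each. Without it the plaque log2 ratios of B2m were 0.68 (0.57 to 0.79) and 0.59 (0.50 to 0.69), and those of H2-K1 0.49 (0.22 to 0.77) and 0.64 (0.42 to 0.86). Without plaque spots and neighbours the section ratios were 0.42 (0.36 to 0.48) for B2m in 5xFAD over wild-type and 0.45 (0.40 to 0.51) in 5xFAD-Dp16 over Dp16.

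The transporter was highest in another cluster. Tap1 and Tap2 had their highest level in cluster 12 in each of the 4 sections, among clusters with at least 20 spots, with Tap1 at 13.7 to 16.3 and Tap2 at 17.3 to 36.4 CPM. These ranks rest on few UMIs and are uncertain. In wild-type, cluster 12 had 27 spots. Clusters 12 and 13 together held 11.8% of the 85 Tap1 UMIs and 8.33% of the 156 Tap2 UMIs of that section. Cluster 12 also held smooth muscle markers at 384 to 806 CPM and endothelial markers at 683 to 1042, against 25.3 to 30.7 and 246 to 250.3 outside clusters 3, 11, 12 and 13. H2-K1 also had its highest level in cluster 12 in the wild-type (150.2 CPM) and Dp16 (278) sections, while in the 5xFAD (105) and 5xFAD-Dp16 (188) sections cluster 12 came second to cluster 11. Tapbp was highest in cluster 13 in wild-type (62.6 CPM), in cluster 12 in Dp16 (77.6) and 5xFAD-Dp16 (67.9), and in cluster 21 in 5xFAD (74.8). Over the 48 section-by-region sums, B2m and H2-D1 had a Pearson r of 0.89, H2-D1 and H2-K1 of 0.87, and B2m and H2-K1 of 0.74, while the pairs with Tap1, Tap2 or Tapbp ran from 0.21 (Tap1 with Tap2) to 0.61 (H2-K1 with Tapbp). These points share sections, depth and cell makeup, so the values are descriptions.

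Over the same 48 sums the genes most like the mean of the 6 members were Arpc1b (r 0.88), a subunit of the actin-branching Arp2/3 complex, and the tetraspanin Cd9 (0.87). The lysosomal proteases Ctsz (0.86), Ctsh (0.85), Ctsl (0.85) and Ctsd (0.84), the chloride channel protein Clic1 (0.85) and lysozyme Lyz2 (0.84) came next. The oxidative stress factor Nfe2l2 and the immunoproteasome subunit Psmb8 closed the first 10, both at 0.82. Cd9 and Ctsd are also on the plaque-associated microglia list. Of these 10, 7 were among the first 10 with values centred within each section, and 5 without clusters 12 and 13.

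The other genes of the pathway are read against all genes of at least 1 CPM, of which 13.2% were higher and 30.5% lower beyond counting error in 5xFAD over wild-type, and 16.2% and 21.2% in 5xFAD-Dp16 over Dp16. Of 10 genes that supply and load peptides, 5 were higher and 0 lower in the first comparison, and 5 were higher and 1 lower in the second, with medians of 0.14 and 0.09. The immunoproteasome subunit Psmb9 had log2 ratios of 0.54 (0.13 to 0.94) and 0.51 (0.18 to 0.84), and Psmb8 had 0.38 (0.14 to 0.62) and 0.56 (0.35 to 0.78). Psmb8 was also higher at plaques, by 0.85 (0.34 to 1.35) and 0.81 (0.44 to 1.17). The chaperones Canx and Calr, the most abundant of the list, had 0.01 and 0.18 in the first comparison and -0.05 and -0.03 in the second.

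Of 16 further heavy chains listed, 6 reached 1 CPM. In 5xFAD over wild-type 3 were higher beyond counting error and 2 lower, and in 5xFAD-Dp16 over Dp16 4 were higher and 0 lower. The non-classical chain H2-T23, the mouse Qa-1 ligand of NK receptors, had log2 ratios of 0.21 (0.03 to 0.39) and 0.34 (0.17 to 0.51) and was higher at plaques by 0.52 and 0.63. H2-M3, which presents formylated peptides, had 0.52 (0.18 to 0.87) and 0.48 (0.14 to 0.83). H2-T22, among the most abundant, was lower in the first comparison, with -0.19 (-0.37 to -0.01), and higher in the second, with 0.30 (0.12 to 0.48). H2-Q2 also went opposite ways, at 6.87, 1.52, 1.34 and 3.54 CPM in the wild-type, Dp16, 5xFAD and 5xFAD-Dp16 sections. At plaques H2-T22 had 0.04 and 0.24, H2-M3 0.36 and 1.21, and H2-Q2 -1.67 and -2.27. Of the 6 chains, 2 were higher and 1 lower beyond counting error at plaques in each section. Of all genes of at least 1 CPM, 6.96% and 10.4% were higher there and 6.88% and 7.75% lower. H2-Q2 belongs to a family of close copies, so its counts are uncertain.

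Of 16 regulators of class I transcription listed, 15 reached 1 CPM, and Nlrc5, the class I transactivator, did not. In 5xFAD over wild-type 1 was higher and 3 lower beyond counting error, and in 5xFAD-Dp16 over Dp16 5 were higher and 2 lower, with medians of -0.04 and -0.02. At plaques 1 of the 15 was higher in 5xFAD and 5 in 5xFAD-Dp16, and 0 were lower, with medians of 0.19 and 0.21, where 6.96% and 10.4% of all genes of at least 1 CPM were higher. Jak1, the most abundant, was lower in both comparisons, with -0.17 and -0.22. Irf8, a factor of the microglial lineage, stood at 3.26, 3.76, 6.91 and 6.66 CPM in the wild-type, Dp16, 5xFAD and 5xFAD-Dp16 sections, log2 ratios of 1.08 and 0.83. The interferon receptor subunits Ifnar1, Ifnar2 and Ifngr2, whose genes lie in the duplicated segment, had 0.65, 0.70 and 0.89 in 5xFAD-Dp16 over 5xFAD and 0.33, 0.87 and 0.37 in Dp16 over wild-type. Ifngr1, which lies outside it, had -0.20 and -0.14. Of 9 genes on a list of class I receptors and related receptors, Lilrb4a alone averaged 1 CPM or more over the 4 sections. It stood at 0.23 and 0.39 in wild-type and Dp16 and at 1.88 and 2.30 in the 5xFAD and 5xFAD-Dp16 sections. Pilra reached 1.15 and 1.26 in the last 2. Whether these receptors bind class I molecules was not examined.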

How the data were processed

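UMI counts per gene and spot were deposited by the authors as raw counts, made with Space Ranger and Seurat on mm10, per the submitters' processing notes, which give no versions. The deposited spot table gave the section, region label, cluster and plaque marks, whose making is, in detail, not given in the sources used here. Per the file headers, the authors also gave the percent of mitochondrial UMIs per spot, by which nothing was filtered here. Counts were summed per section, region label, plaque mark and cluster, and divided by the summed total (CPM). Ratios have exact conditional binomial intervals, and plaque ratios were standardised over region labels with a delta-method interval. Intervals were tested on simulated Poisson counts. Such counts hold counting error only, so variation between spots or sections was not tested. Genes averaging 5 CPM or more formed the background. Marker and pathway lists count genes that averaged at least 1 CPM over the sections. Named genes come from a rule: the 6 members, the 3 most abundant genes and those with the highest and lowest smaller 5xFAD ratio of each pathway list, and the 10 genes with the highest Pearson r to the members' mean log2(CPM + 1). Members, lists, motifs and rules were chosen with earlier results of these data known. The 4 sections share array barcodes (2879 of 3164 in more than 1), which mark positions, not cells. Python 3.11.15, scipy 1.17.1, R 4.3.3 and edgeR 4.0.16 (TMM) were used. Alternatives left out clusters, spots or regions, or changed scaling and matching. Promoters and positions came from RefSeq GRCm38.p6, in which all 6 members matched.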

Additional observations from a re-analysis of the deposited data

Results flagged for a closer look

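Tapbp went opposite ways in paired comparisons. Its log2 ratio was 0.33 in 5xFAD over wild-type and -0.082 in 5xFAD-Dp16 over Dp16. It was 0.25 in Dp16 over wild-type and -0.17 in 5xFAD-Dp16 over 5xFAD, which rest on the same 4 sections. At plaques Tapbp had 0.30 in 5xFAD and -0.085 in 5xFAD-Dp16, and in neighbours 0.19 and -0.21. Tap2 in neighbours had -0.11 in 5xFAD and 0.052 in 5xFAD-Dp16. With 1 section per genotype none of these differences in direction was tested. The intervals of the Tapbp plaque and neighbour values and of both Tap2 values hold 0. So does that of Tapbp in 5xFAD-Dp16 over Dp16. In 5xFAD-Dp16 over 5xFAD the Tapbp interval holds 0 without clusters 12 and 13. Without clusters 12 and 13 the difference between the 5xFAD steps of Tapbp, -0.42 (-0.63 to -0.20) with all spots, was -0.22 (-0.46 to 0.02).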

How the results depend on the processing

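No paired analysis was possible because the groups share fewer than 2 replicate numbers; the 5xFAD steps on both backgrounds stand side by side, and an additive model over the 4 sections was not run. In 5xFAD over wild-type, 5xFAD-Dp16 over 5xFAD and all plaque and neighbour comparisons, the counts of members higher beyond counting error stayed within 1.5 times under every alternative run. Dp16 over wild-type did not hold: its count of 3 members became 1 with regions standardised, 1 with a mean over spots, 0 without clusters 12 and 13, and 0 with regions standardised and without both clusters, where the member median was -0.018, B2m -0.026 and Tapbp -0.012, and H2-D1 was lower, at -0.11 (-0.22 to -0.01). In 5xFAD-Dp16 over Dp16 the count of 3 became 5 with regions standardised, 5 without clusters 12 and 13, and 5 with both, where the median was 0.75. The median of the difference between 5xFAD steps went from -0.02 to 0.22 with both. The median plaque ratio in 5xFAD-Dp16 went from 0.40 to 0.14 without cluster 11. The leaving out of cluster 11, of plaque spots with neighbours, of spots marked in 1 column only, and of clusters 12 and 13 with standardisation was added after seeing the data. Apart from these, 135 summary values kept their side and size, and of the single-gene values 403 did, 81 moved by more than their counting interval and 2 changed sign. Depth limits Tap1 and Tap2: with 11 to 18 UMIs in plaque spots their intervals span over 1 log2 unit. Tissue makeup and genotype cannot be told apart with 1 section each.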

Other observations

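Among class II genes, whose products present peptides to CD4 T cells, Cd74 and H2-Aa had another layout than class I. Cd74, the invariant chain, stood at 5.35, 20.9, 26.1 and 18.2 CPM in the wild-type, Dp16, 5xFAD and 5xFAD-Dp16 sections, and H2-Aa at 2.27, 10.2, 11.4 and 7.79. Both were thus lowest in wild-type, and the Dp16 section lay near the 5xFAD sections. Without clusters 12 and 13 the log2 ratio of Cd74 was 1.07 in Dp16 over wild-type, 2.61 in 5xFAD over wild-type and 0.65 in 5xFAD-Dp16 over Dp16. At plaques Cd74 was higher by 1.83 in 5xFAD and 1.01 in 5xFAD-Dp16. H2-Oa, a regulator of class II peptide loading, stood at 1.11, 0.78, 2.42 and 1.62. H2-DMa, at 15.2, 21.6, 20.5 and 25.7, and H2-DMb1, at 2.50, 3.63, 4.61 and 4.74, were highest in 5xFAD-Dp16. Of the 8 class II genes listed, 7 reached 1 CPM. In 5xFAD over wild-type 7 were higher and 0 lower beyond counting error, against 13.2% and 30.5% of all genes of at least 1 CPM. In 5xFAD-Dp16 over Dp16 3 were higher and 4 lower, against 16.2% and 21.2%.

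With all spots, other molecules that pair with B2m differed between the backgrounds. Hfe, a regulator of iron uptake, stood at 5.30, 10.3, 7.56 and 7.16 CPM in the wild-type, Dp16, 5xFAD and 5xFAD-Dp16 sections, and Fcgrt, the neonatal Fc receptor, at 10.8, 16.7, 13.7 and 13.2. Both were highest in Dp16. In 5xFAD against wild-type Hfe had a log2 ratio of 0.51, Mr1 of 0.39, Fcgrt of 0.35 and Cd1d1 of -0.11, and 2 of the 4 were higher and 0 lower beyond counting error, against 13.2% and 30.5% of all genes of at least 1 CPM. In 5xFAD-Dp16 against Dp16 Hfe had -0.52, Fcgrt -0.34, Mr1 -0.14 and Cd1d1 1.01, and 1 was higher and 2 lower, against 16.2% and 21.2%. Without clusters 12 and 13, Hfe had -0.22, Fcgrt -0.24, Mr1 0.03 and Cd1d1 1.32 in 5xFAD-Dp16 over Dp16. In 5xFAD over wild-type they then had 0.35, 0.30, 0.22 and -0.21. Hfe in Dp16 over wild-type went from 0.95 to 0.54 without both clusters. The 4 genes then summed to 17.3, 21.6, 20.9 and 19.9 CPM in the wild-type, Dp16, 5xFAD and 5xFAD-Dp16 sections. The difference between the backgrounds was not tested.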
